A study of Mus musculus with 24 samples.

Results

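Levels of 9 genes of the transforming growth factor beta (TGF-beta) system were followed across 4 treatment groups in RNA sequencing of mouse sciatic nerve. The genes were taken by symbol, and all 9 were found among the 24421 genes of the count table. They are the ligands Tgfb1, Tgfb2 and Tgfb3, the latent TGF-beta binding proteins Ltbp1 and Ltbp2, the receptors Tgfbr1 and Tgfbr2, and the feedback inhibitors and targets Smad7 and Skil. All 9 passed the filter on low counts, and 15385 genes were tested in all. The smallest count behind any value of a member was 15 reads, for Ltbp2 in vehicle 1.

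TGF-beta ligands are secreted as latent complexes that latent TGF-beta binding proteins tether to the extracellular matrix, and integrins, thrombospondin and proteases release the active ligand. The active ligand binds the type II receptor, which recruits and phosphorylates the type I receptor, and the type I receptor in turn phosphorylates Smad proteins that enter the nucleus with Smad4. In peripheral nerve the pathway is known for its actions on Schwann cells, fibroblasts and matrix deposition, and neurofibromas are tumours rich in Schwann cells, fibroblasts and collagen.

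The mice were Nf1 flox/flox PostnCre+, so that Cre driven by the Postn promoter removes the floxed Nf1 alleles in cells that express Postn and in their descendants. Treatments of 1 week were compared, with 6 libraries each: LY3214996, an inhibitor of the kinases ERK1/2 (ERKi), abemaciclib, an inhibitor of the cyclin-dependent kinases CDK4/6 (CDKi), LY3214996 with abemaciclib (combination), and vehicle. Vehicle mice carried the same floxed alleles and Cre, the labels call the tissue plexiform neurofibroma of all 4 groups, and nerve without the deletion was not analysed here. The labels give no ages and do not say whether the libraries came from separate mice, so the p-values measure the spread between libraries only.

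Total counts ran from 14525128 to 24676846 in ERKi, 15118837 to 19757307 in CDKi, 12096063 to 18518610 in combination and 5391543 to 42321550 in vehicle libraries. Schwann cell genes were present in all 24 libraries, with the Schwann lineage factor Sox10 at 129 to 579.5 normalised counts (CPM, counts scaled to library size). The libraries differed in content. The mean of 10 neuron genes was under 6 log2 CPM in CDKi 3 and 5, combination 3 and 5 and vehicle 1 and 5, called neuron-poor here. Combination 3, at 5.64, was nearest the cut, and the rest of these ran from 1.97 (CDKi 5) to 4.22 (vehicle 5). Libraries above the cut ran from 7.28 (vehicle 4) to 9.63 (ERKi 3), and the source of their neuron RNA was not tested. Alb, a liver gene, exceeded 1000 CPM in ERKi 3, CDKi 1 and CDKi 3.

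Compared per kilobase of exon, the receptors were the most abundant members and Ltbp2 and Tgfb2 the least abundant. Over 24 libraries the mean level was 33.0 ± 8.66 CPM per kb for Tgfbr2, 17.02 ± 2.93 for Tgfbr1, 11.7 ± 3.44 for Tgfb3, 8.35 ± 2.02 for Ltbp1 and 7.36 ± 2.35 for Skil (SD, n = 24 libraries). Below them stood Tgfb1 at 5.96 ± 1.49, Smad7 at 3.16 ± 0.956, Tgfb2 at 1.48 ± 0.385 and Ltbp2 at 1.24 ± 0.799 CPM per kb (SD, n = 24 libraries). The ranges of each pair of neighbours in this order overlapped. Within single libraries the order of related genes was steadier. Per kilobase, Tgfb3 exceeded Tgfb1 and Tgfb1 exceeded Tgfb2 in 24 of 24 libraries, Ltbp1 exceeded Ltbp2 and Skil exceeded Smad7 in 24 of 24, and Tgfbr2 exceeded Tgfbr1 in 23 of 24.

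Promoter windows are shown for both latent binding proteins and for the ligands Tgfb1 and Tgfb2. In CDKi against vehicle the log2 fold changes of Ltbp2 (1.00) and Ltbp1 (-0.13) had opposite signs. In ERKi against vehicle those of Tgfb1 (-0.33) and Tgfb2 (0.33) did. The windows were picked by these signs, and none of these differences passed the test described below. The windows are RefSeq sequences of build GRCm38.p6, from 250 bases before to 50 bases after an annotated start, written 5′ to 3′ on the gene's strand. They lie at chr12:84876442-84876741 (minus strand, Ltbp2), chr17:75005279-75005578 (plus strand, Ltbp1, one of its starts), chr7:25686752-25687051 (plus strand, Tgfb1) and chr1:186705940-186706239 (minus strand, Tgfb2). Capitals mark CAGAC, the SMAD-binding element, on either strand (GTCTG on the other), and TGACGTCA, the cyclic AMP response element.
Ltbp2: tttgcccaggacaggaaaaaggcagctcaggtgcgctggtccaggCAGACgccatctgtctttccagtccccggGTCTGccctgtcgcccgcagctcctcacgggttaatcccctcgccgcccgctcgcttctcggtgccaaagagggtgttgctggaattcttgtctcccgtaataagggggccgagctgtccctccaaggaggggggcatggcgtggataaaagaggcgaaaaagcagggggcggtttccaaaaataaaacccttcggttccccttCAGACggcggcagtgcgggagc
Ltbp1: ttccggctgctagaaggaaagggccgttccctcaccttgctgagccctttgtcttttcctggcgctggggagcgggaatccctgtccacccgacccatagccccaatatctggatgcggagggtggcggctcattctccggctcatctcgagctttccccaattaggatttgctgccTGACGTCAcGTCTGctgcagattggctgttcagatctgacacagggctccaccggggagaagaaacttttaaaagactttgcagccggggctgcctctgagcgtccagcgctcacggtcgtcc
Tgfb1: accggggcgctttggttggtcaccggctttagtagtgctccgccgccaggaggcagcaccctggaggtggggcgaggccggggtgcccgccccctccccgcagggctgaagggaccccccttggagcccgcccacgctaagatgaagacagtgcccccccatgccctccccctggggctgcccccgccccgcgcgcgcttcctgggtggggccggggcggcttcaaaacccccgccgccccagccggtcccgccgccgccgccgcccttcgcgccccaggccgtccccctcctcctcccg
Tgfb2: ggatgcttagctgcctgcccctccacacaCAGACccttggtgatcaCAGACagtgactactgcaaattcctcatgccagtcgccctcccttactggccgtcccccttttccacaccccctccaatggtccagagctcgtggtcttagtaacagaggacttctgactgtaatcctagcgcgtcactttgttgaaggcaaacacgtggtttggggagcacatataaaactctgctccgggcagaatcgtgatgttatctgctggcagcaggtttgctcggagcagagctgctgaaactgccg

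The Ltbp2 window held 3 CAGAC matches, the Tgfb2 window held 2, and the Ltbp1 window shown held 1 CAGAC and 1 TGACGTCA that did not overlap. A window at another start of Ltbp1, not shown, held 2 CAGAC. The Tgfb1 window held none of the motifs searched. CAGAC occurs in 49.6% of all 32851 mouse promoter windows of this length, TGACGTCA in 1.79%, and TGANTCA, the AP-1 motif, in 7.81%. RefSeq windows matched 6 of the 9 members, in 8 windows, of which 6 held CAGAC, 1 held TGACGTCA and 0 held TGANTCA. A match of letters is a description of the window and does not show that a factor binds there.

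Across the 4 groups no member passed the test of edgeR (quasi-likelihood, Benjamini-Hochberg adjusted p under 0.05 over 15385 genes). In the joint test of any difference among the groups 0 of 9 members were called, and 0% of all genes were. At an unadjusted p under 0.05 that test held 1 of 9 members, Ltbp2, against 8.14% of all genes. With edgeR the unadjusted p of Ltbp2 was 0.00470 and the adjusted p 0.379. DESeq2 and limma-voom, here with quality weights that give more variable libraries less influence, also called 0 of 9 members in the joint test. The results below are therefore levels with their spread, taken by role, and a fold change is given as log2 with its standard error (SE). In RNA of whole nerve, fewer cells of a type and less RNA per cell cannot be told apart.

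Tgfb1, the ligand best known from immune and stromal cells, lay between 19.5 and 30.9 CPM (median 25.4) in ERKi, 24.5 and 44.7 (32.1) in CDKi, 20.9 and 46.7 (24.8) in combination and 22.3 and 44.5 (32.5) in vehicle nerves. All 4 groups overlapped, and the highest value belonged to combination 3 and the lowest to ERKi 3. Against vehicle the log2 fold change of Tgfb1 was -0.33 ± 0.19 in ERKi, 0.03 ± 0.19 in CDKi and -0.20 ± 0.19 in combination (SE, n = 6 a group). All 6 ERKi libraries lay below the vehicle mean, and with edgeR the adjusted p was 0.672 (unadjusted 0.0936). Without the neuron-poor libraries the ERKi value was -0.16 and the combination value -0.30, and without combination 3 the combination value was -0.39.

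Tgfb2, the ligand with the lowest level, ran from 8.04 to 13.6 CPM (median 8.998) in ERKi, 4.99 to 9.58 (8.15) in CDKi, 6.503 to 13.01 (8.12) in combination and 4.61 to 11.2 (7.17) in vehicle nerves. The groups overlapped, with ERKi 3 highest. ERKi against vehicle gave 0.33 ± 0.21 (SE, n = 6 a group), with 6 of 6 ERKi libraries above the vehicle mean and an adjusted p of 0.672 with edgeR. That value was 0.11 without the neuron-poor libraries and 0.20 without the libraries with liver genes, of which ERKi 3 is one.

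Tgfb3, a ligand known in mesenchyme and wound repair, was the most abundant ligand per kilobase. Its level ran from 33.9 to 38.6 CPM (median 34.9) in ERKi, 32.6 to 43.5 (37.0) in CDKi, 29.2 to 83.3 (43.4) in combination and 28.4 to 56.1 (31.7) in vehicle nerves. The ERKi libraries were close together and the combination libraries spread widely, with combination 3 at 83.3 CPM well above the next, at 50.4 CPM in combination 5. The combination gave 0.34 ± 0.20 against vehicle, 0.43 ± 0.20 against ERKi and 0.35 ± 0.19 against CDKi (SE, n = 6 a group). The value against ERKi had the smallest p of these, 0.0391 unadjusted and 0.508 adjusted with edgeR. Without combination 3 the values were 0.11, 0.20 and 0.10, and without the neuron-poor libraries they were 0.31, 0.11 and 0.10. Tgfb3 lies on chromosome 12 opposite to Ttll5, a gene on the other strand, and since the strand of counting is not given in the sources used here, reads where they overlap cannot be assigned to one of them.

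**Figure D1:**
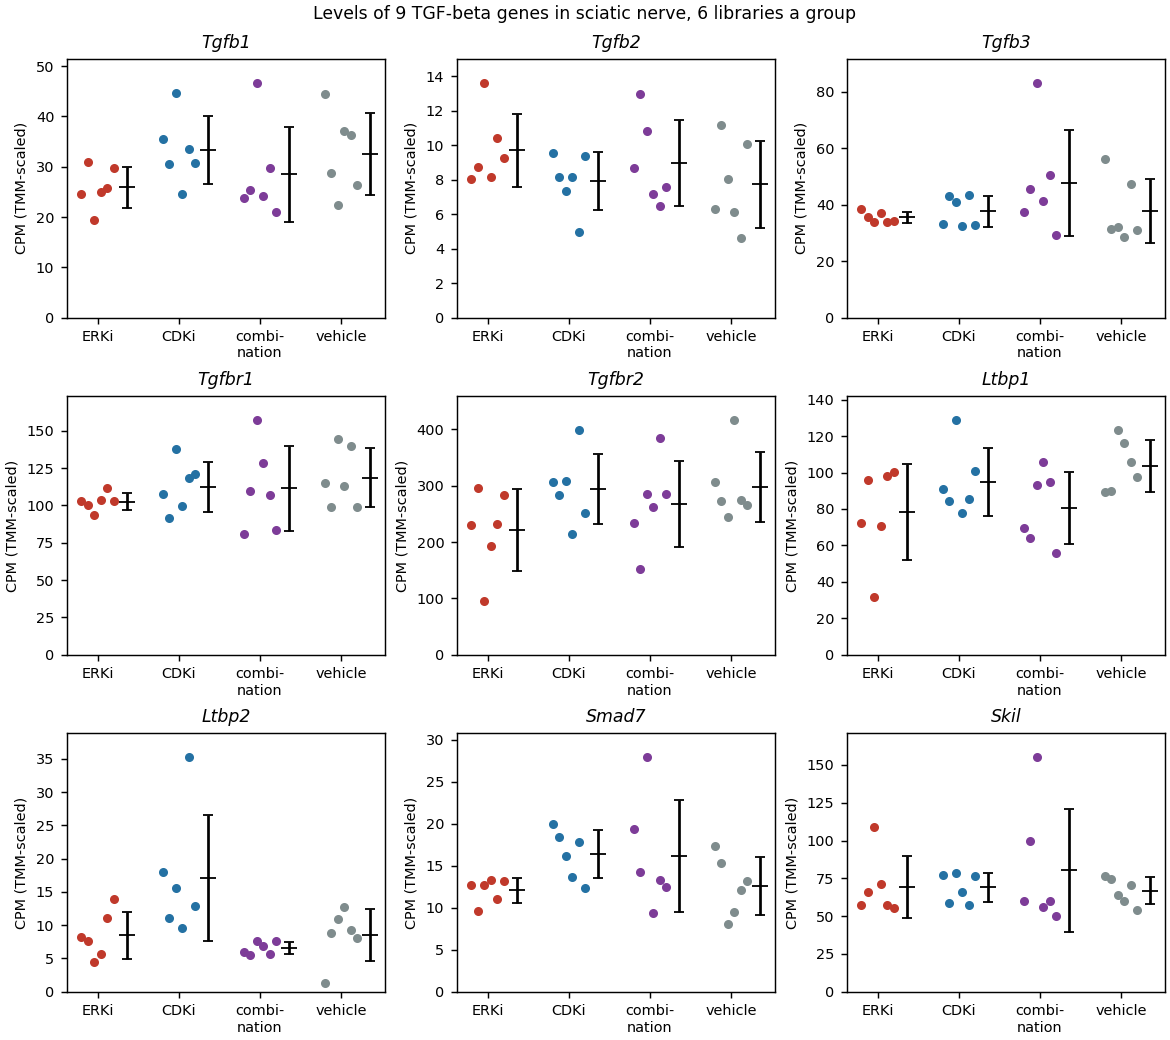
Each point is 1 library's level in CPM (TMM-scaled; y axes start at 0) for the 9 genes, by treatment group, and the bars beside them show the mean ± SD of 6 libraries. The groups overlap for all genes in comparisons with vehicle, Ltbp2 is higher in all 6 CDKi than in all 6 combination libraries, and combination 3 is the highest point for Tgfb1, Tgfb3, Tgfbr1, Smad7 and Skil.

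Ltbp2, a matrix protein of elastic fibres that does not itself carry latent TGF-beta as Ltbp1 does, had the smallest p of the 9 genes among the groups. It lay between 4.51 and 13.9 CPM (median 7.92) in ERKi, 9.63 and 35.3 (14.2) in CDKi, 5.55 and 7.70 (6.39) in combination and 1.33 and 12.7 (9.09) in vehicle nerves. All 6 CDKi libraries lay above all 6 combination libraries. CDKi overlapped with vehicle, and the extremes were CDKi 5 at 35.3 CPM and vehicle 1 at 1.33 CPM.

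The combination against CDKi gave -1.38 ± 0.37 for Ltbp2 (SE, n = 6 a group), which is 0.385-fold, with an unadjusted p of 0.00121 and an adjusted p of 0.319 with edgeR. DESeq2 called this difference (-1.38, adjusted p = 0.0374), the only call of a member by any of the 3 tools, and limma-voom did not. Groups did not overlap for 0.247% of all genes in this comparison, and 0.0065% of all genes (1 gene) were called by edgeR. At an unadjusted p under 0.05 stood 1 of 9 members, against 7.07% of all genes. The value was -1.04 without CDKi 5 and -1.004 without the neuron-poor libraries.

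CDKi against vehicle gave 1.00 ± 0.37 for Ltbp2 (SE, n = 6 a group), with 6 of 6 CDKi libraries above the vehicle mean, an unadjusted p of 0.0124 and an adjusted p of 1.00 with edgeR. It was 0.67 without CDKi 5 and 0.36 without the neuron-poor libraries, which hold both the highest and the lowest Ltbp2 level. ERKi against vehicle gave -0.0015 ± 0.37 and the combination against vehicle -0.37 ± 0.37, with 6 of 6 combination libraries below the vehicle mean (adjusted p = 0.776 with edgeR). Without the neuron-poor libraries these values were -0.25 in ERKi and -0.64 in combination. The interaction, which sets the combination against the sum of both single effects, was -1.38 ± 0.52 (unadjusted p = 0.0147, adjusted p = 0.988 with edgeR), and it was -0.76 without the neuron-poor libraries.

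Markers of the perineurium, the sheath around nerve fascicles, were set beside Ltbp2. The summed level of 5 perineurial markers was 238 to 562 CPM in ERKi, 415 to 856 in CDKi, 368 to 817 in combination and 384 to 727 in vehicle nerves, and its highest value was in CDKi 5, the library with the highest Ltbp2. The defining marker Slc2a1, a glucose transporter, was detected in every library, at 52.7 to 176 CPM. CDKi 5 also had 858 CPM of 6 skeletal muscle genes summed, the highest of its group. The part of either in the Ltbp2 values was not tested.

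Ltbp1, the matrix protein that binds latent TGF-beta, ran from 31.7 to 100.3 CPM (median 84.2) in ERKi, 77.8 to 129 (88.1) in CDKi, 55.9 to 106 (81.6) in combination and 89.2 to 123 (102) in vehicle nerves. The groups overlapped, and ERKi 3 was the lowest and CDKi 3 the highest of all libraries. Against vehicle the values were -0.40 ± 0.21 in ERKi, -0.13 ± 0.21 in CDKi and -0.36 ± 0.21 in combination (SE, n = 6 a group). With edgeR the adjusted p was 0.672 in ERKi (6 of 6 libraries below the vehicle mean) and 0.534 in combination (5 of 6). Without ERKi 3 the ERKi value was -0.24, and without the neuron-poor libraries the CDKi value was -0.26 and the combination value -0.54.

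Tgfbr2, the type II receptor, ran from 95.9 to 296 CPM (median 231) in ERKi, 215 to 399 (295) in CDKi, 152 to 384 (274) in combination and 245 to 417 (274) in vehicle nerves. The groups overlapped, with ERKi 3 lowest and vehicle 4 highest. ERKi against vehicle gave -0.42 ± 0.22 (SE, n = 6 a group), with an adjusted p of 0.672 with edgeR, and it was -0.27 without ERKi 3. All 6 ERKi libraries lay below the vehicle mean of 297 CPM, which includes vehicle 4 at 417 CPM. ERKi 2 (296 CPM) and ERKi 6 (283 CPM) lay above the vehicle median. CDKi gave -0.01 ± 0.22 and the combination -0.15 ± 0.22 against vehicle, and without the neuron-poor libraries these values were -0.18 and -0.37.

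Tgfbr1, the type I receptor, had the smallest relative spread of the 9 genes over all libraries, a coefficient of variation of 17.2%. It ran from 93.3 to 111 CPM (median 103) in ERKi, 91.3 to 138 (113) in CDKi, 81.0 to 157 (109) in combination and 98.9 to 145 (114) in vehicle nerves. The groups overlapped, and combination 1 and combination 3 held the extremes. Against vehicle the values were -0.21 ± 0.14 in ERKi, -0.07 ± 0.14 in CDKi and -0.09 ± 0.14 in combination (SE, n = 6 a group), and the adjusted p with edgeR was 0.672 in ERKi, with 6 of 6 libraries below the vehicle mean. Without combination 3 the combination value was -0.21.

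Smad7, a direct target of the pathway that inhibits its receptors, ran from 9.60 to 13.3 CPM (median 12.7) in ERKi, 12.4 to 19.95 (16.99) in CDKi, 9.42 to 28.0 (13.7) in combination and 8.04 to 17.3 (12.6) in vehicle nerves. The groups overlapped, although the CDKi median lay above the highest ERKi library. Against vehicle the values were -0.06 ± 0.21 in ERKi, 0.38 ± 0.21 in CDKi and 0.35 ± 0.21 in combination (SE, n = 6 a group). With edgeR the unadjusted p was 0.0911 in CDKi (5 of 6 libraries above the vehicle mean) and 0.114 in combination (4 of 6), with adjusted p-values of 1.00 and 0.559. The combination against ERKi gave 0.42 ± 0.21 (adjusted p = 0.559 with edgeR), which was 0.20 without combination 3. The value of the combination against vehicle was 0.12 without combination 3, 0.24 without the neuron-poor libraries and 0.12 with limma-voom.

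Skil, which encodes the Smad corepressor SnoN, ran from 55.2 to 109 CPM (median 61.9) in ERKi, 57.7 to 78.3 (71.2) in CDKi, 49.97 to 155 (60.2) in combination and 53.7 to 76.4 (67.6) in vehicle nerves. The groups overlapped, and combination 3, ERKi 3 and combination 2 were the highest libraries. Against vehicle the values were 0.06 ± 0.23 in ERKi, 0.05 ± 0.23 in CDKi and 0.27 ± 0.23 in combination (SE, n = 6 a group), with a smallest adjusted p of 0.718 with edgeR. The combination value rested on combination 3: it was -0.04 without that library, 0.06 without the neuron-poor libraries and -0.01 with limma-voom.

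The size of a difference that these libraries leave possible is given by the 95% confidence intervals of the log2 fold changes. Against vehicle they lay between -0.89 (Tgfbr2) and 0.77 (Tgfb2) for all 9 members in ERKi, and so within 1 log2 unit of 0. In CDKi 8 of 9 intervals and in combination 8 of 9 lay within that distance, and Ltbp2 was the exception in both, with intervals reaching 1.77 in CDKi and -1.14 in combination. For the combination against ERKi and against CDKi the count was also 8 of 9, with Ltbp2 the exception and its interval reaching -2.15 against CDKi.

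**Figure D2:**
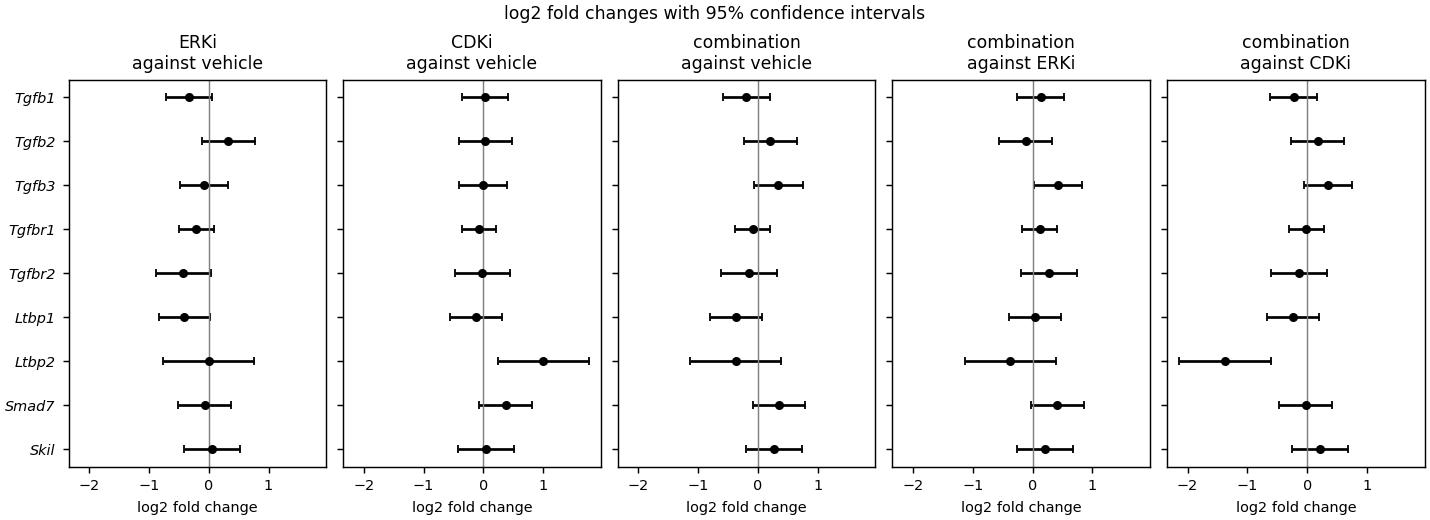
Points are log2 fold changes from edgeR and bars their 95% confidence intervals (x axes, log2 units; 0 means no difference), for the 9 genes in 5 comparisons of 6 against 6 libraries. The intervals of Ltbp2 are the widest and lie to the right of 0 in CDKi against vehicle and to the left of 0 in combination against CDKi; no member passed the adjusted p of 0.05.

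Read against all genes, the members did not stand out by count. In ERKi against vehicle edgeR called 0 of 9 members and 0% of all genes, and 0 of 9 members had an unadjusted p under 0.05, against 6.34% of all genes. The members' median log2 fold change was -0.08, against 0.00 over all genes tested, and 7 of 9 were lower. In CDKi against vehicle edgeR called 0 of 9 members and 0% of all genes, 1 of 9 had an unadjusted p under 0.05, against 3.12% of all genes, and the medians were 0.03 for the members and -0.01 for all genes.

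In combination against vehicle edgeR called 0 of 9 members, against 0.123% of all genes (19 genes, of which 2 rose and 17 fell). None of the 9 had an unadjusted p under 0.05, against 11.5% of all genes, and the medians were -0.09 for the members and 0.04 for all genes. In combination against ERKi edgeR called 0 of 9 members and 0% of all genes, and 1 of 9 members, Tgfb3, had an unadjusted p under 0.05, against 9.34% of all genes. The interaction held 0 of 9 members and 0% of all genes, with Ltbp2 the 1 member at an unadjusted p under 0.05, against 3.69% of all genes. DESeq2 and limma-voom called 0 of 9 members in each of these comparisons. The 3 comparisons with vehicle share their vehicle libraries.

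No member's groups were apart in ERKi against vehicle (0 of 9, against 0.24% of all genes), in CDKi against vehicle (0 of 9, against 0.091%), in combination against vehicle (0 of 9, against 0.858%) or in combination against ERKi (0 of 9, against 0.481%).

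A list of 32 other genes of the pathway, covering latency and activation, receptors, Smads, Smad inhibitors and targets, was set beside the members, and all 32 were tested. In combination against vehicle 12 were higher and 20 lower, with a median log2 fold change of -0.13 against 0.04 over all genes. Of the 32, 11 had an unadjusted p under 0.05 there, against 11.5% of all genes, and edgeR called 1, which fell. DESeq2 called 5, among them Thbs1, Tgfbi, Fn1 and Col1a1, and limma-voom 2, among them Thbs1; Fn1 and Col1a1 are named here after their values were seen. In ERKi against vehicle 28 of 32 were lower (median -0.28, against 0.00 over all genes). Of the 32, 3 had an unadjusted p under 0.05 there, against 6.34% of all genes. In CDKi against vehicle 19 of 32 were lower (median -0.06, against -0.01). There 0 had an unadjusted p under 0.05, against 3.12% of all genes. In these 2 comparisons edgeR, DESeq2 and limma-voom each called 0 of 32. In ERKi against vehicle 7 of 7 fibroblast markers were lower too (median -0.68, 0 called). Of these, 3 had an unadjusted p under 0.05, against 6.34% of all genes. Their summed level was 3821 to 11424 CPM in ERKi and 10557 to 16286 CPM in vehicle nerves. All 10 neuron markers were higher there (median 0.99, 0 with an unadjusted p under 0.05). The part of either in the pathway genes' values was not tested.

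The gene that fell was Thbs1, thrombospondin 1, a matrix protein that activates latent TGF-beta. It ran from 40.1 to 324 CPM (median 145) in ERKi, 153 to 508 (279) in CDKi, 34.1 to 157 (56.1) in combination and 200.2 to 540 (339) in vehicle nerves. Every combination library lay below every vehicle library, which was the case for 0.858% of all genes in that comparison. Thbs1 averaged 69.5 ± 44.0 CPM in combination and 348 ± 117 CPM in vehicle (SD, n = 6 each), a log2 fold change of -2.33 ± 0.44 and an adjusted p of 0.0361 with edgeR.

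Under 11 other settings the Thbs1 log2 fold change lay between -2.61 and -2.25, but the call was lost under 4 of them. The adjusted p was 0.255 without the neuron-poor libraries, 0.192 without the deepest and the shallowest library, 0.0708 with no filter on low counts and 0.0507 with the series of title numbers as a term, all with edgeR. Leaving out 1 library at a time, 9 of 24 fits called it and 15 did not, with adjusted p-values from 0.0127 to 0.113. The call was lost without vehicle 1, 2, 3, 5 or 6, ERKi 1 or 4, CDKi 4, 5 or 6, or combination 1, 2, 4, 5 or 6. The combination against CDKi gave -2.14 ± 0.44 (adjusted p = 0.175 with edgeR) and against ERKi -1.28 ± 0.43 (adjusted p = 0.450 with edgeR). Thbs1 was also lower in ERKi against vehicle, at -1.04 ± 0.43, with 6 of 6 ERKi libraries below the vehicle mean. With edgeR its unadjusted p there was 0.0225 and the adjusted p 0.672. CDKi against vehicle gave -0.18 ± 0.42.

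Targets of the pathway outside the members were lower than in vehicle more often than not in ERKi and in the combination. In ERKi 9 of 10 targets were lower, with a median of -0.60. There 1 had an unadjusted p under 0.05, against 6.34% of all genes. In CDKi 5 of 10 were lower, with a median of 0.004, and 0 had an unadjusted p under 0.05. In the combination 7 of 10 were lower, with a median of -0.70. There 6 had an unadjusted p under 0.05, against 11.5% of all genes, and edgeR called 0. Of those 6, 5 were lower and 1 was higher, Acta2, smooth muscle actin, which is named here after its values were seen. Acta2 averaged 39.7 ± 42.8 CPM in combination and 17.8 ± 4.14 CPM in vehicle (SD, n = 6 each) and gave 1.15 ± 0.48, with an adjusted p of 0.333 with edgeR. Its highest library was combination 3, and the value was 0.34 without it. Acta2 also stands among 6 pericyte and smooth muscle markers, of which 4 were higher (median 0.49, 0 called with edgeR), with a summed level of 173 to 411 CPM in combination and 198 to 271 CPM in vehicle nerves, and their part was not tested. Tgfbi, a matrix protein induced by TGF-beta, averaged 139 ± 40.8 CPM in combination and 343 ± 91.5 CPM in vehicle (SD, n = 6 each), with ranges that just overlapped, and gave -1.31 ± 0.33 with an adjusted p of 0.0988 with edgeR and 0.00989 with DESeq2.

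In ERKi against vehicle Tgfbi gave -0.56 ± 0.32, with an adjusted p of 0.672 with edgeR. In CDKi against vehicle it gave 0.02 ± 0.32 (adjusted p = 1.00 with edgeR).

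Among the signal carriers, Smad3, which the type I receptor activates, gave -0.73 ± 0.22 in combination against vehicle (53.1 ± 12.3 CPM in combination and 88.4 ± 24.2 CPM in vehicle, SD, n = 6 each), with an adjusted p of 0.164 with edgeR. Smad4, its shared partner, gave 0.18 ± 0.12. The coreceptor Eng gave 0.66 ± 0.23 and the decoy receptor Bambi -0.52 ± 0.26, with adjusted p-values of 0.233 and 0.459 with edgeR. The inhibitory Smad6 gave 0.60 ± 0.25, the ubiquitin ligase Smurf1 0.10 ± 0.18 and the latent binding protein Ltbp4 -0.29 ± 0.22, and none of them passed the test. Without combination 3 the values of Eng and Smad6 were 0.37 and 0.32. Endothelial markers were higher in the same comparison, 6 of 6 with a median of 0.79. With edgeR 6 had an unadjusted p under 0.05, against 11.5% of all genes, and 0 were called. Their summed level was 131 to 363 CPM (median 176) in combination and 85.8 to 166 CPM (125) in vehicle nerves. Without combination 3 their median log2 fold change was 0.46, with 6 of 6 higher and 2 with an unadjusted p under 0.05. The part of endothelial RNA in the values of Eng and Smad6 was not tested.

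Nerve fibroblast markers were lower beside these genes, without passing the test. In combination against vehicle 7 of 7 markers were lower, 3 with an unadjusted p under 0.05, against 11.5% of all genes, and 0 called. Their summed level was 5501 to 13591 CPM (median 8138) in combination and 10557 to 16286 CPM (13265) in vehicle nerves. The collagen gene Col1a1 stands on both the fibroblast list and the target list. The defining fibroblast marker Pdgfra was detected in every library, at 45.1 to 378 CPM. The part of fibroblast RNA in these differences was not tested.

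**Figure D3:**
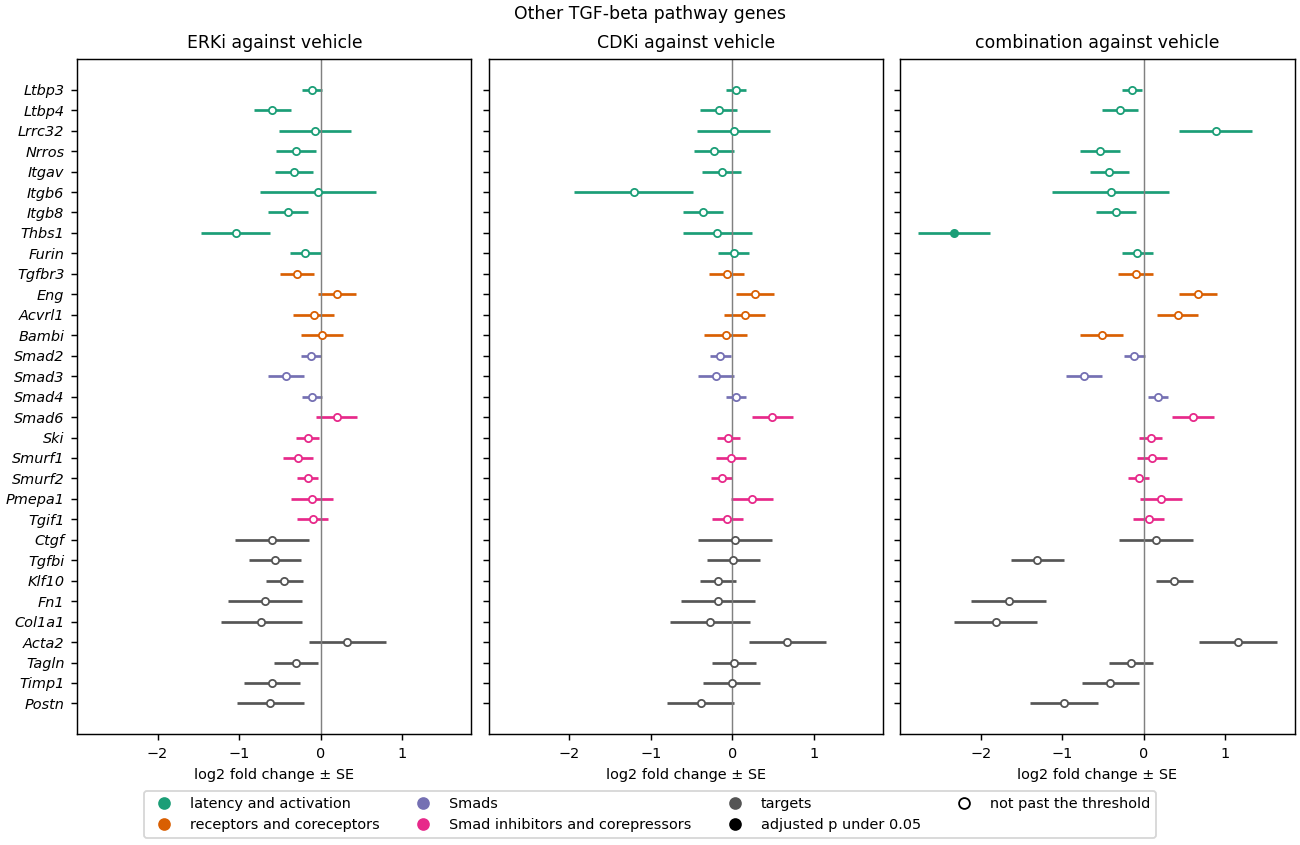
Log2 fold changes with SE from edgeR (x axes, log2 units) are plotted for other genes of the pathway, coloured by role, in ERKi, CDKi and combination against vehicle. Thbs1 in the combination, at -2.33, is the only filled point, which marks an adjusted p under 0.05.

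Single libraries set many of the extremes. Combination 3 had the highest level of all 24 libraries for 5 of 9 members, and ERKi 3 had the lowest for Tgfb1, Tgfbr2 and Ltbp1 and the highest for Tgfb2. Combination 3 was neuron-poor and had the highest summed level of 6 endothelial markers, 363 CPM, against 131 to 363 CPM in combination and 85.8 to 166 CPM in vehicle libraries, and 675 CPM of 7 macrophage markers, the highest of its group. ERKi 3 carried liver genes and had the lowest sum of 7 fibroblast markers, 3821 CPM. Their part in the members' levels was not tested.

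The neuron-poor libraries differed in some members. Tgfb1 lay between 29.8 and 46.7 CPM (median 40.4) in the 6 neuron-poor and 19.5 and 37.0 CPM (25.6) in the 18 other libraries. Tgfb3 lay between 41.0 and 83.3 CPM (median 48.9) in neuron-poor and 28.4 and 45.4 CPM (34.0) in the other libraries. Tgfb2 went the other way, with 4.61 to 10.8 CPM (median 6.40) in neuron-poor and 6.15 to 13.6 CPM (8.71) in the other libraries. No ERKi library was neuron-poor, against 2 in each other group, so a level in ERKi is set against groups that hold such libraries.

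**Figure D4:**
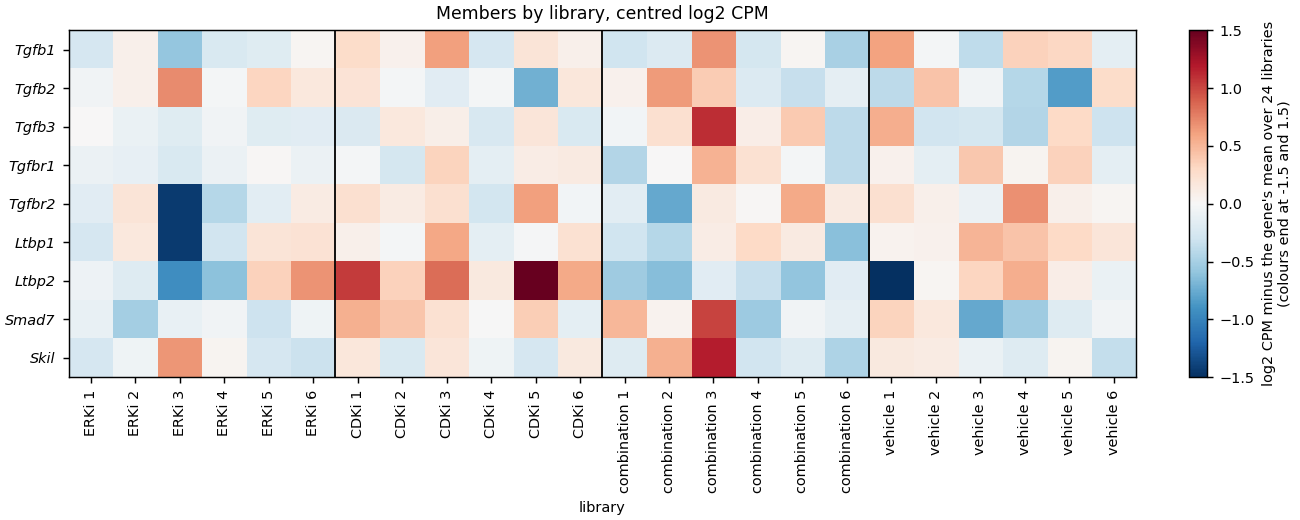
Colours show each library's log2 CPM minus the gene's mean over 24 libraries (red above, blue below; the scale ends at -1.5 and 1.5), with genes in rows and libraries in columns by group. Combination 3 is red for Tgfb1, Tgfb3, Tgfbr1, Smad7 and Skil, ERKi 3 is blue for Tgfbr2 and Ltbp1, and Ltbp2 is red across most CDKi libraries.

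Genes whose levels went most closely with each member were found over the 24 libraries after the group means were removed, among 12649 genes. They share libraries, depth and scaling with the member, so the correlations are descriptions. Tgfb3 went most closely with Oxsr1 (Pearson r = 0.94, Spearman rho = 0.91), Tgfbr2 with Axl (0.94 and 0.89), Skil with Gng10 (0.93 and 0.83) and Tgfbr1 with Mob1a (0.92 and 0.90). Tgfb1 went most closely with Ppp2r5a (0.90 and 0.91), Ltbp1 with Gpc4 (0.89 and 0.90), Tgfb2 with Myh10 (0.89 and 0.91) and Smad7 with Pmepa1, another inhibitor of the pathway (0.89 and 0.82). Ltbp2 had the lowest likeness to any gene, 0.82 and 0.76 with Kcnj13. Over the 18 libraries that were not neuron-poor, r was 0.87 for Tgfb3 and Oxsr1, 0.94 for Tgfbr2 and Axl, 0.88 for Smad7 and Pmepa1 and 0.78 for Ltbp2 and Kcnj13. Without the 2 libraries farthest from the member's median, r was 0.88 for Tgfb3, 0.86 for Tgfbr2, 0.82 for Smad7 and 0.74 for Ltbp2 with the same genes.

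Among the members themselves, after the same removal of group means, the closest pair was Tgfb1 and Tgfb3 (Pearson r = 0.72), followed by Tgfbr2 and Ltbp1 (r = 0.68), over 24 libraries. The receptors were not closely related to each other (r = 0.13). Ltbp1 went with the mean of the fibroblast markers (r = 0.82), Skil with that of the macrophage markers (r = 0.82) and Ltbp2 with that of the perineurial markers (r = 0.75). Other members had values of like size: Tgfbr1 with macrophage (0.75) and Tgfbr2 with pericyte and smooth muscle (0.74) and Schwann cell markers (0.74). Skil had -0.77 with Schwann cell markers. Vehicle 1 and CDKi 5 were the lowest and highest for both Ltbp2 and the perineurial mean. ERKi 3 was the lowest for Ltbp1 and the fibroblast mean. It was also the lowest for Tgfbr2 and for the Schwann cell and the pericyte and smooth muscle means. Combination 3 was the highest for Skil, Tgfbr1 and the macrophage mean. No value without any of these libraries was computed.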

How the data were processed

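Whole sciatic nerve RNA was sequenced in 24 libraries. RNA was purified on Qiagen columns, per the labels' protocols, and libraries were made with a Roche KAPA kit after removal of ribosomal RNA. The molecule label reads polyA RNA instead, and the labels do not settle which of these holds. The values the authors deposited are unscaled read counts, 1 column for each library. The build was mm10 and the tools were FastQC, STAR and DESeq2, per the submitters' processing notes. Counting program, annotation, tool versions and strandedness are not given in the sources used.

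Quasi-likelihood tests were run in edgeR 4.0.16 (R 4.3.3) on TMM-scaled counts with 1 mean per group over all 24 libraries (20 residual degrees of freedom). filterByExpr (minimum count 10, minimum total 15) kept 15385 of 24421 genes. Calls used a Benjamini-Hochberg adjusted p under 0.05 over those genes. The biological coefficient of variation was 35.9%. CPM are TMM-scaled, and CPM per kb uses the exon union of GENCODE vM21. Alternatives were DESeq2 1.42.0, limma-voom with quality weights (limma 3.58.1), other scaling and filters, covariates, and libraries left out. Values given for limma-voom all carry these weights. The interaction contrast was combination - ERKi - CDKi + vehicle. The test was checked on simulated counts with the same dispersion for every gene and no differences in content between libraries. That check does not cover differences such as the neuron-poor libraries.

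Total counts set the precision: 3 counts, taken as the floor, were 0.0697 CPM in the deepest vehicle library and 0.536 CPM in the shallowest, and floors cover counting error only. The 60 pairs of libraries within groups differed by at least 19.9 chi-square units per degree of freedom, so none was 1 library counted again. This cannot tell whether 2 libraries came from 1 mouse, and pairs across groups were not looked at. Groups were read from the treatment label, and library numbers follow accession order and only name samples.

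The 9 members and the gene lists were chosen with earlier results of these data known. Named genes were the members, genes of the pathway list with an adjusted p under 0.05 or with the 2 smallest p-values of their role list in the joint test, and the genes most alike to each member. Results of some genes that this rule or the marker lists name are not reported here.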

Additional observations from a re-analysis of the deposited data

Results flagged for a closer look

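Among the 36 sets of 6 libraries (9 members in 4 groups), 4 held 1 library far from the rest by Dixon's test (critical value 0.625), a test that flags about 1 in 20 sets by chance. Tgfb1 was 46.7 CPM in combination 3, where the next combination library had 29.8 CPM. Tgfbr2 was 417 CPM in vehicle 4, where the next vehicle library had 307 CPM. Ltbp2 was 35.3 CPM in CDKi 5, where the next CDKi library had 18.01 CPM. Skil was 109 CPM in ERKi 3, where the next ERKi library had 71.0 CPM. Combination 3 and CDKi 5 were neuron-poor and ERKi 3 carried liver genes, and the part of either in these levels was not tested.

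Ltbp2 in combination and in CDKi lay on opposite sides of the vehicle mean, with all 6 combination libraries below it and all 6 CDKi libraries above it. That mean, 8.53 CPM, includes the neuron-poor vehicle 1 at 1.33 CPM, and both groups overlapped with vehicle. Against vehicle, CDKi gave 1.00 with all libraries and 0.36 without the neuron-poor ones. The combination gave -0.37 and -0.64 in the same way. The log2 fold change of combination against CDKi was -1.38, with an unadjusted p of 0.00121 and an adjusted p of 0.319 with edgeR.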

How the results depend on the processing

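No paired analysis was possible because the library numbers only follow accession order and the labels give no shared replicate numbers. The count of members called was 0 in every comparison and setting, leaving out 1 library at a time included, except for DESeq2 in combination against CDKi, with 1 (Ltbp2). Scaling by RLE moved the median of all genes by less than 0.1 log2 units. Over 585 log2 fold changes of members under the other alternatives 61 changed sign, and over 1296 with 1 library left out 65 did; none of those had passed the test, and the largest had a size of 0.43 before the change.

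Counts of all genes called moved much more. For combination against vehicle (19 genes) they were 272 with DESeq2, 29 with limma-voom, 6 with no filter on low counts, 10 from the groups compared only, 38 with the neuron marker mean as a term, 0 without the neuron-poor libraries, 108 without the libraries with liver genes and 1 without the deepest and the shallowest library. For CDKi against vehicle (0) they were 30 with DESeq2, 1 with no filter and 1 with the neuron term, and for ERKi against vehicle (0) 2 with DESeq2. For combination against ERKi (0) they were 35 with DESeq2, 4 with limma-voom and 1 without the deepest and the shallowest library. For combination against CDKi (1) they were 84 with DESeq2, 4 with limma-voom, 0 from the groups compared only and 0 without the neuron-poor libraries. The interaction (0) held 51 with DESeq2. The joint test (0) held 163 with DESeq2, 6 with limma-voom and 1 without the libraries with liver genes. The cause was not tested.

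With 1 library left out the counts ran from 0 to 94 for combination against vehicle (94 without vehicle 4, 54 without ERKi 3), 0 to 3 for CDKi against vehicle, 0 to 1 for combination against ERKi, 0 to 6 for combination against CDKi, 0 to 1 for the interaction, 0 to 48 for the joint test (48 without ERKi 3) and 0 to 0 for ERKi against vehicle.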
